A study of Homo sapiens with 18 samples.

Results

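Lysosome and autophagy genes were followed as a fixed list of 43 genes, all of which were found by exact symbol among the 40916 gene rows of the deposited count tables. The list held 6 membrane and transport proteins, 8 glycosidases, 13 cathepsins and other peptidases, 6 proteins of lipid and sphingolipid degradation, 2 transcription factors, 5 proton pump subunits and 3 autophagosome proteins. RNA came from 18 libraries of cultured human cells in 6 groups of 3. MCF10A is a non-tumorigenic mammary epithelial line, used here with a histone H2B-GFP label. HCT116 is a colorectal carcinoma line, used here unlabeled and described as p53-null. Each line was grown alone, and both were grown together in a culture set up as an equal mixture. Every culture was sampled without radiation and after a dose of 10 Gy. The sample titles give day 2 and the design text gives 72 hours after irradiation, and which of these holds was not resolved. The lines were kept in different media, MCF10A in horse serum with EGF, hydrocortisone, cholera toxin and insulin and HCT116 in McCoy's 5A with fetal bovine serum, and the medium of the mixed cultures was not given. Line and medium therefore cannot be told apart. The p-values measure the spread between the 3 libraries of a group, which the labels call biological replicates without saying how the cultures were set up.

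Lysosomes are acidic organelles in which hydrolases break down proteins, glycans and lipids that arrive by endocytosis or by autophagy. A vacuolar proton pump keeps the lumen acidic, glycosylated membrane proteins line the organelle, and channels and transporters move cholesterol and ions out of it. In autophagy, cargo is enclosed by a membrane that carries LC3 and GABARAP proteins and is delivered to the lysosome. TFEB and TFE3 are related transcription factors known to bind a short E-box element, termed the CLEAR element, in front of many lysosomal genes. After radiation many epithelial cells stop dividing, and a larger lysosomal compartment with raised beta-galactosidase activity is a known feature of cells that stay arrested.

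The tables held 25737818 to 40839835 counts per library and 19356 to 23225 genes with a count. The response to irradiation was checked first. CDKN1A, an inhibitor of the cell cycle, rose with irradiation in each kind of culture. Levels are given as CPM, the count divided by the library's total and multiplied by 1000000. CDKN1A went from 172 ± 10.4 to 590.4 ± 26.6 CPM in MCF10A, from 318 ± 39.3 to 1593 ± 90.2 CPM in HCT116 and from 246 ± 21.0 to 1145 ± 91.4 CPM in the mixed cultures (mean ± SD, n = 3). MDM2, a ubiquitin ligase, rose from 267 ± 7.5 to 707 ± 47.0 CPM in HCT116. The proliferation marker MKI67 fell from 677 ± 19.9 to 231 ± 9.1 CPM in MCF10A, while HCT116 went from 1087 ± 69.8 to 302 ± 7.6 CPM, and its part in the changes below was not tested. Summed over 10 basal mammary markers, non-irradiated MCF10A had 10245 to 10959 CPM and non-irradiated HCT116 had 1079 to 1257 CPM, with TP63 at 0. Summed over 10 intestinal markers, the values were 0.507 to 1.06 CPM in MCF10A, with CDX1, CDX2, CDH17, KRT19, GPA33 and PHGR1 at 0, and 733 to 1009 CPM in HCT116, with CDX1 at 0. Both sums were higher after irradiation in the line they mark, at 16642 to 16767 CPM for the mammary markers in MCF10A and 1442 to 1682 CPM for the intestinal ones in HCT116. The mammary sum also reached 2203 to 2503 CPM in irradiated HCT116. It came mostly from ITGB4 (978 CPM), SFN (629 CPM), CAV1 (372 CPM) and CDH3 (274 CPM). KRT5, KRT6A, KRT14 and KRT17 had 0.92 to 1.69 CPM there, and TP63 had 0.033 CPM (means, n = 3). CDH3 was not higher in MCF10A before irradiation, at 147 CPM beside 196 CPM in HCT116. The part of these markers in the changes below was not tested. The mixed cultures were close to HCT116 in composition. From genes detected almost only in 1 of the lines, MCF10A RNA was estimated at 0.447% ± 0.053 of the non-irradiated and 1.24% ± 0.066 of the irradiated mixed libraries (SD, n = 3), so most of their RNA came from HCT116. The estimate takes medians over genes and assumes that each line expresses them in the mixture as it does alone, which was not tested. Its SD covers the spread between libraries, not between genes. After irradiation KRT5 had 2784 CPM in MCF10A and 2.72 CPM in the mixed cultures, and TP63 had 131 and 1.97 CPM. In bulk RNA, fewer cells of a line and less RNA per cell cannot be told apart.

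The 43 genes took a larger share of all counts after irradiation in each kind of culture. In the non-irradiated MCF10A libraries the 43 genes summed to 4573 to 4653 CPM, and in the irradiated ones to 7029 to 7198 CPM. The sums were 3458 to 3590 and 4036 to 4167 CPM in HCT116, and 3320 to 3510.3 and 4146 to 4352 CPM in the mixed cultures. No irradiated library overlapped its non-irradiated group. CTSB and PSAP, the members with the most counts there, carried much of the MCF10A sum. Without them it was 3317 ± 25.8 CPM before and 4286 ± 57.4 CPM after irradiation (mean ± SD, n = 3).

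Counted gene by gene with edgeR's quasi-likelihood test and Benjamini-Hochberg adjustment over all genes, at an adjusted p under 0.05, 33 of the 43 members rose in MCF10A, 3 fell and 7 did not pass. Among all 15154 genes tested there, 26.2% were called higher and 29.2% lower. The list was chosen with earlier results of these data known. Here and below, counts of members beside the shares over all genes therefore describe the list and do not test it. The median log2 fold change was 0.36 over the members and 0.00 over all genes. In HCT116, 18 of the 42 members tested rose, 8 fell and 16 did not pass, beside 25.3% and 27.2% of all 16857 genes tested. Their median log2 fold change was 0.15, and that of all genes was 0.01. In the mixed cultures 22 of 42 rose, 5 fell and 15 did not pass, beside 24% and 25.4% of all 16906 genes tested, with medians of 0.20 and 0.01. CTSF had no count in HCT116 and too few in the mixed cultures to be tested. The share of counts from mitochondrially encoded genes also rose with irradiation, from 5.19% to 6.2% in MCF10A, from 8.62% to 12.0% in HCT116 and from 8.54% to 12.3% in the mixed cultures (means, n = 3). With those genes and the 10 most abundant genes left out of the scaling, the members' counts were 33 higher and 3 lower in MCF10A, 18 and 8 in HCT116, and 22 and 6 in the mixed cultures.

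**Figure D1:**
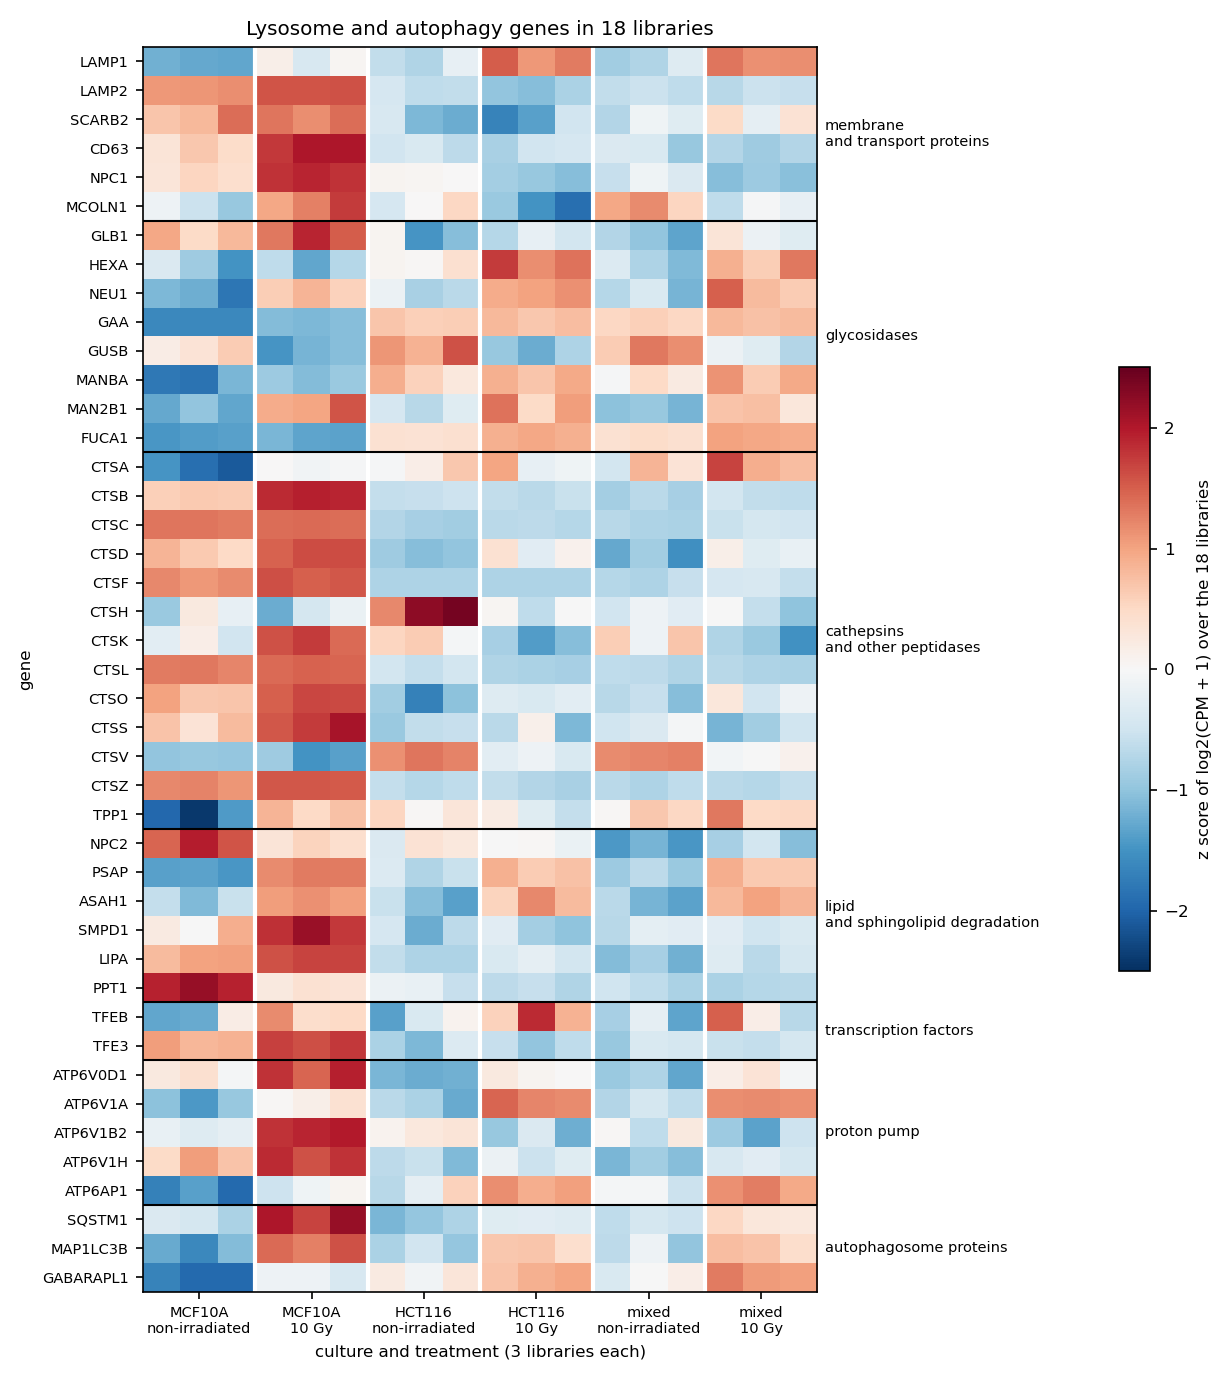
Each row is 1 of the 43 genes, ordered by role, and each column 1 of the 18 libraries, grouped by culture and treatment. Colour is the z score of log2(CPM + 1) for that gene over the 18 libraries, and the irradiated MCF10A libraries are red for most genes while the mixed libraries follow those of HCT116.

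Membrane and transport proteins differed in direction between the cultures. In MCF10A 5 of 6 rose and none fell, in HCT116 1 rose and 3 fell, and in the mixed cultures 1 rose and 2 fell. LAMP1, an abundant glycoprotein of the lysosomal membrane, was the one that rose in all 3. Its values were 181, 178 and 177 CPM in non-irradiated and 239, 213 and 234 CPM in irradiated MCF10A (log2 fold change 0.34 ± 0.045, adjusted p = 3.0e-07). In HCT116 they were 204, 198 and 222 CPM before and 318, 289.7 and 303 CPM after (log2 fold change 0.55 ± 0.061, adjusted p = 6.3e-08). The mixed cultures went from 193, 198 and 216 to 305, 294 and 295 CPM (log2 fold change 0.53 ± 0.057, adjusted p = 1.0e-07). Every irradiated library lay above every non-irradiated library of the same culture.

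Opposite changes in the lines were found for NPC1, MCOLN1 and LAMP2. NPC1, which exports cholesterol from the lysosome and lies on chromosome 18 from 23506184 to 23586506 (RefSeq, GRCh38.p14), had 92, 99.8 and 95.9 CPM in non-irradiated and 152, 157 and 152 CPM in irradiated MCF10A (log2 fold change 0.66 ± 0.049, adjusted p = 3.3e-12). In HCT116 it went from 85.4, 84.7 and 83.5 to 62.7, 60.4 and 58.3 CPM (log2 fold change -0.47 ± 0.064, adjusted p = 1.4e-06), and in the mixed cultures from 68.5, 80.3 and 74 to 58.2, 61.6 and 58.5 CPM (log2 fold change -0.35 ± 0.071, adjusted p = 3.2e-04). It was thus higher in all irradiated MCF10A libraries and lower in all irradiated HCT116 and mixed libraries. MCOLN1, the lysosomal cation channel that releases calcium, rose from 11, 10.03 and 9.19 to 13.9, 14.8 and 16.5 CPM in MCF10A (log2 fold change 0.56 ± 0.11, adjusted p = 1.3e-04). It fell from 10.3, 11.3 and 12.6 to 9.2, 8.1 and 7.42 CPM in HCT116 (log2 fold change -0.46 ± 0.14, adjusted p = 0.00742) and from 13.9, 14.6 and 12.7 to 9.84, 11.2 and 10.8 CPM in the mixed cultures (log2 fold change -0.39 ± 0.11, adjusted p = 0.00673), without overlap in any of the 3. LAMP2, the partner of LAMP1 that also serves in chaperone-mediated autophagy, rose in MCF10A (log2 fold change 0.24 ± 0.040, adjusted p = 7.9e-06), fell in HCT116 (log2 fold change -0.21 ± 0.062, adjusted p = 0.00549) and did not pass in the mixed cultures (log2 fold change -0.03 ± 0.056, adjusted p = 0.674). CD63, a tetraspanin of late endosomes, rose in MCF10A from 198 ± 10.9 to 314 ± 14.3 CPM (mean ± SD, n = 3) and passed in neither of the other cultures. SCARB2, which carries glucocerebrosidase to the lysosome, passed in none, with log2 fold changes of 0.03, -0.03 and 0.07 in MCF10A, HCT116 and mixed cultures.

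Promoter sequence was read for the members because 33 of the 43 genes had risen in MCF10A and because the CLEAR element is short enough to be searched. RefSeq promoter windows (GRCh38.p14, 250 bases before and 50 after an annotated start) were at hand for 31 of the 43 members, and 5 of the 31 had several windows, with 45 windows in all. The core CACGTG, which reads the same on both strands, stood in 9 of the 45 windows (20%), beside 7.26% of all 35114 windows. Counted by gene, 9 of 31 members (29%) and 8.78% of all 27303 genes had it in at least 1 window. The 10-base CLEAR-type element, which is the core with GT before it and AC after it and is its own reverse complement, was found with at most 2 mismatches outside the core in 7 of the 45 windows (15.6%), beside 3.17% of all windows. The 9 genes with a core were ATP6V0D1, CD63, CTSA, CTSD, CTSF, GAA, LAMP1, MCOLN1 and NEU1. All 9 were among the 22 members with a window that rose in MCF10A. A core was held by 0 of the 3 that fell and 0 of the 6 that did not pass, which are few genes, and the split was not tested. In HCT116 5 of the 9 rose, MCOLN1 fell, CD63 and CTSA did not pass and CTSF was not tested. These matches describe letters in a window, not bound sites. The CLEAR element is known from the promoters of lysosomal genes, so its higher share among these members could be foreseen and is no test. The genes they were set beside were not limited to protein-coding ones, while all 43 members are protein coding. Control of the members by TFEB or TFE3 was not tested. The stretches of the 7 genes with a near-complete element are shown because they carry it within the window before the start. For 6 of the 7 that start is the outermost one of the RefSeq gene. CD63 had 8 windows, and the one shown belongs to a start 1032 bases downstream of its outermost start, inside the gene. Capitals mark each 10-base element, and the coordinates, the strand and the position relative to the window's start precede each sequence.
GAA, chr17:80101493-80101567, plus strand, bases -88 to -14: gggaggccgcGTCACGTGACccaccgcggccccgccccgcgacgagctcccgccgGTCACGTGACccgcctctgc
MCOLN1, chr19:7522571-7522623, plus strand, bases -53 to -1: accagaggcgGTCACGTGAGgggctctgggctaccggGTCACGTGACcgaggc
LAMP1, chr13:113297035-113297228, plus strand, bases -204 to -11: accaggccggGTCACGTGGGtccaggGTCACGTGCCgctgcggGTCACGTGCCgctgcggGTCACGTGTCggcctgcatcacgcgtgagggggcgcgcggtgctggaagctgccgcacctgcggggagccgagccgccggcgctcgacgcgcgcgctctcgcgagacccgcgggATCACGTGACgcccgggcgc
CTSA, chr20:45891281-45891327, plus strand, bases -54 to -8: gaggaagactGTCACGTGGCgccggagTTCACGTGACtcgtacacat
ATP6V0D1, chr16:67481199-67481228, minus strand, bases -71 to -42: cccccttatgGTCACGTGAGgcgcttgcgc
CTSD, chr11:1763957-1763986, minus strand, bases -59 to -30: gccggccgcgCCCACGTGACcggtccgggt
CD63, chr12:55729172-55729201, minus strand, bases -192 to -163: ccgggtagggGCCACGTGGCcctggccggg
GAA carried 2 complete elements and MCOLN1 carried 1 complete and 1 with a single mismatch. LAMP1 carried 6 elements with 1 or 2 mismatches, of which 5 are shown and the sixth spans its annotated start.

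**Figure D2:**
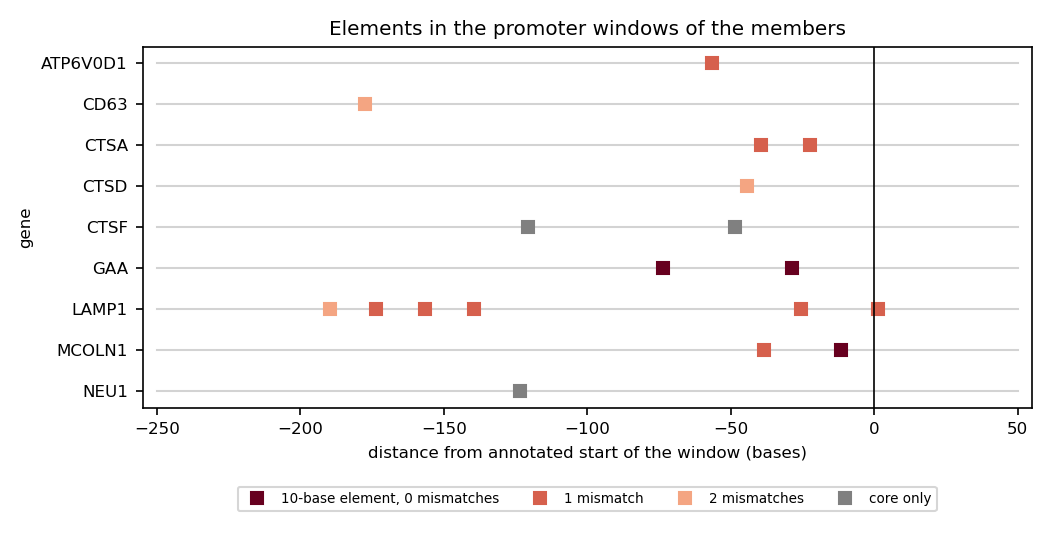
Each line is the promoter window of 1 member that holds the core, from 250 bases before to 50 bases after the window's annotated start (for CD63 1 of 8 windows), and each square is a CACGTG core coloured by the mismatches of the 10-base element around it. LAMP1 holds 6 elements, GAA has 2 complete ones, and CTSF and NEU1 hold only the core.

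Glycosidases, which trim sugars from glycoproteins, glycolipids and glycogen, rose in all kinds of culture, 5 of 8 in MCF10A, 5 of 8 in HCT116 and 7 of 8 in the mixed cultures, and 1 of 8, GUSB, fell in each. FUCA1, the fucosidase on chromosome 1 from 23845077 to 23868290 (RefSeq, GRCh38.p14), had the largest increase of any member in HCT116. There it went from 49.8, 48.3 and 50.6 CPM to 96.1, 106 and 94.2 CPM (log2 fold change 1.00 ± 0.068, adjusted p = 2.2e-11). The mixed cultures went from 49.9, 54.4 and 50.5 to 109.7, 104 and 101 CPM (log2 fold change 0.99 ± 0.067, adjusted p = 8.2e-11). In MCF10A its level was far lower, 4.00, 4.45 and 4.68 CPM before and 6.39, 5.03 and 4.91 CPM after, and the difference did not pass (log2 fold change 0.29 ± 0.18, adjusted p = 0.167). GUSB, the beta-glucuronidase, fell from 31.6, 32.7 and 34.7 to 22.1, 23.6 and 24.1 CPM in MCF10A (log2 fold change -0.52 ± 0.081, adjusted p = 3.0e-06). It fell from 38.4, 36.5 and 42.6 to 24.8, 23.2 and 25.7 CPM in HCT116 (log2 fold change -0.67 ± 0.088, adjusted p = 1.0e-06) and from 34.7, 40.1 and 38.9 to 29.4, 28.5 and 26 CPM in the mixed cultures (log2 fold change -0.47 ± 0.084, adjusted p = 8.9e-05). All irradiated libraries of a culture were below all non-irradiated ones, and GUSB was the only member called lower in all 3 by the main fits. With all 6 groups in one fit CTSV was called lower in MCF10A as well (-0.31, adjusted p = 0.047).

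GLB1 encodes beta-galactosidase, whose activity is the usual stain for senescent cells. Its log2 fold change was at most 0.20 in any culture. The values were 49.5, 45.7 and 48.3 CPM in non-irradiated and 52.5, 57.6 and 54.1 CPM in irradiated MCF10A (log2 fold change 0.17 ± 0.064, adjusted p = 0.0236). Leaving out replicate 2 of either MCF10A group ended that call (adjusted p = 0.0686 without the non-irradiated and 0.147 without the irradiated library). HCT116 had 43, 33.5 and 35.7 CPM before irradiation and 37.9, 41.1 and 39.4 CPM after it, which overlapped (log2 fold change 0.09 ± 0.089, adjusted p = 0.439). The mixed cultures had 37.7, 36.2 and 34.3 CPM before irradiation and 44.6, 41.5 and 40.4 CPM after it (log2 fold change 0.20 ± 0.075, adjusted p = 0.0318), a call that was lost without mixed non-irradiated replicate 2 or 3 or mixed irradiated replicate 1 or 2 (adjusted p = 0.0613, 0.133, 0.152 and 0.0774). Larger increases were seen for GAA, the glucosidase that digests glycogen, which rose in MCF10A from 8.47, 8.65 and 8.5 to 16, 15.5 and 16.6 CPM (log2 fold change 0.89 ± 0.11, adjusted p = 8.3e-08). In HCT116 GAA started far higher, at 124, 109.9 and 113 CPM, and its irradiated libraries at 142, 121 and 135 CPM overlapped these (log2 fold change 0.20 ± 0.067, adjusted p = 0.0145). That call was lost without HCT116 non-irradiated replicate 2 (adjusted p = 0.0956) or irradiated replicate 1 or 3 (0.0973 and 0.054). MAN2B1, an alpha-mannosidase, rose from 33.9 ± 1.5 to 60.9 ± 5.5 CPM in MCF10A, while HCT116 went from 40.5 ± 2.0 to 58.1 ± 6.3 CPM (mean ± SD, n = 3). The mixed cultures had 35.2, 35.9 and 34 CPM before and 54.4, 54.8 and 48.9 CPM after (log2 fold change 0.56 ± 0.074, adjusted p = 1.8e-06), without overlap. NEU1, the sialidase, also rose in all 3, with log2 fold changes of 0.48, 0.39 and 0.39. HEXA, a hexosaminidase subunit, rose in HCT116 (0.34) and the mixed cultures (0.42). MANBA, the beta-mannosidase, rose in MCF10A (0.33) and the mixed cultures (0.35).

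The cathepsins and other peptidases, which degrade proteins in the lysosome, rose in MCF10A in 10 of 13 cases, and none fell there, beside 26.2% and 29.2% of all genes. In HCT116 3 of 12 rose and 4 fell, which is near the shares over all genes (25.3% and 27.2%). The mixed cultures had 4 of 12 that rose and 2 that fell, beside 24% and 25.4%. The counts for the other roles are read against these same shares. CTSB, a cysteine cathepsin and the member with the most counts in irradiated MCF10A, showed the largest increase there. It had 765, 793 and 779 CPM in non-irradiated and 1766, 1857 and 1817 CPM in irradiated MCF10A (log2 fold change 1.20 ± 0.037, adjusted p = 2.2e-20). HCT116 had 346, 348 and 366 CPM before irradiation and 339.9, 329 and 354 CPM after it, which overlapped (log2 fold change -0.04 ± 0.056, adjusted p = 0.552). In the mixed cultures it went from 293, 327 and 295 to 379, 342 and 335 CPM (log2 fold change 0.18 ± 0.062, adjusted p = 0.0197). The mixed call was lost without mixed non-irradiated replicate 1 or 3 (adjusted p = 0.0948 and 0.0725) or irradiated replicate 1 (0.154). CTSS, known for antigen processing, was low but rose in MCF10A from 2.5, 1.86 and 2.66 to 4.48, 5.07 and 6.2 CPM (log2 fold change 1.15 ± 0.21, adjusted p = 3.9e-05), and it stayed under 2 CPM in every HCT116 and mixed library. CTSK, a collagen-degrading cathepsin, changed in opposite directions. MCF10A went from 11.2, 12.5 and 10.6 to 18.1, 18.9 and 17.3 CPM (log2 fold change 0.64 ± 0.11, adjusted p = 8.9e-06). HCT116 went from 13.8, 14.1 and 11.8 to 9.6, 8.23 and 9.01 CPM (log2 fold change -0.56 ± 0.13, adjusted p = 6.6e-04), and the mixed cultures from 14.1, 11.6 and 14.4 to 9.78, 9.33 and 7.98 CPM (log2 fold change -0.59 ± 0.13, adjusted p = 6.0e-04). None of the 3 overlapped.

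CTSV, a close relative of CTSL on chromosome 9 from 97029677 to 97039643 (RefSeq, GRCh38.p14), had the largest decrease of any member. In HCT116 it fell from 33, 37.8 and 35.2 CPM to 12.5, 13.8 and 11.6 CPM (log2 fold change -1.47 ± 0.10, adjusted p = 2.4e-11). In the mixed cultures it fell from 33.8, 34.7 and 35.5 to 14.3, 14.9 and 16.3 CPM (log2 fold change -1.22 ± 0.087, adjusted p = 2.0e-10). MCF10A had 7.47, 7.69 and 7.62 CPM before irradiation and 8.01, 5.11 and 5.65 CPM after it, which overlapped (log2 fold change -0.31 ± 0.16, adjusted p = 0.106). CTSD, the aspartic cathepsin, rose in all 3 cultures. Its values went from 41.9, 38.7 and 36.5 to 53.4, 56.8 and 56.9 CPM in MCF10A (log2 fold change 0.49 ± 0.067, adjusted p = 4.4e-07), from 21.2, 19.6 and 20.3 to 35, 26.9 and 31.2 CPM in HCT116 (log2 fold change 0.61 ± 0.10, adjusted p = 1.8e-05) and from 18, 21.3 and 16.3 to 31.8, 26.7 and 27.9 CPM in the mixed cultures (log2 fold change 0.61 ± 0.10, adjusted p = 5.0e-05). No irradiated library overlapped. CTSC, which activates serine proteases, and CTSO rose in all 3 as well, but 4 of these 6 calls were lost without a single library. In MCF10A CTSC (0.10) was lost without non-irradiated replicate 3 or irradiated replicate 1 or 2 (adjusted p = 0.093, 0.0541 and 0.0998). In HCT116 CTSC (0.23) was lost without non-irradiated replicate 2 or 3 or irradiated replicate 2 (0.071, 0.0662 and 0.069), and CTSO (0.78) without non-irradiated replicate 2 (0.0567). In the mixed cultures CTSO (0.59) was lost without non-irradiated replicate 3 (0.108) or irradiated replicate 1 or 3 (0.175 and 0.0504). CTSA, the carboxypeptidase that stabilises NEU1 and GLB1, rose in MCF10A (0.31) and passed in neither of the others, and so did CTSZ (0.24) and TPP1 (0.59). CTSF, tested in MCF10A alone, rose there from 7.12, 6.14 and 7.04 to 11.7, 10.2 and 10.9 CPM. CTSH fell in HCT116 (-0.33), and so did CTSL (-0.19), whose call was lost without HCT116 replicate 3 of either group (adjusted p = 0.0526 and 0.0717). In MCF10A CTSL had 0.09 and did not pass in the main fit. It was called higher there with RLE factors, upper-quartile factors, library size alone, DESeq2 or halved counts (adjusted p = 0.0389, 0.0013, 0.0275, 0.0327 and 0.0306).

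Levels were compared between genes per kilobase of exons (union of GENCODE 29 exons, which is not stated to be the authors' annotation). The union spans all annotated exons rather than the transcripts present, and was 11421 bases for CTSC, 7428 for CTSB and 2038 for CTSZ. The order between genes depends on these lengths. By CPM alone CTSC stood above CTSZ and CTSL in MCF10A. In non-irradiated MCF10A the peptidases were ordered CTSB at 105 ± 1.9, CTSZ at 102 ± 3.3, CTSL at 65.7 ± 1.7, CTSC at 38.7 ± 0.70 and CTSD at 12.5 ± 0.86 CPM per kilobase (SD, n = 3). On this scale CTSB and CTSZ did not differ beyond their spread, although CTSB had the higher CPM. After irradiation CTSB stood at 244 ± 6.1 and CTSZ at 122 ± 0.97 CPM per kilobase, well apart. In HCT116 CTSB had 47.5 ± 1.5 and CTSZ 41.4 ± 1.2 CPM per kilobase before irradiation, and 45.9 ± 1.7 and 39.9 ± 2.0 after it. PSAP led the members on this scale in every monoculture group, with 156 ± 2.9 CPM per kilobase in non-irradiated and 315 ± 5.2 in irradiated MCF10A, and 195 ± 10.4 and 275 ± 9.4 in HCT116.

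Among the proteins of lipid and sphingolipid degradation, 4 of 6 rose and 2 fell in MCF10A, while 3 rose and none fell in HCT116 and in the mixed cultures. PSAP, the precursor of the saposins that help enzymes reach sphingolipids, lies on chromosome 10 from 71816298 to 71851251 (RefSeq, GRCh38.p14). It had 511, 513 and 496 CPM in non-irradiated and 1000.05, 1028 and 1029.8 CPM in irradiated MCF10A (log2 fold change 0.99 ± 0.037, adjusted p = 1.7e-18). It rose from 667, 599 and 631 to 924, 864 and 887 CPM in HCT116 (log2 fold change 0.50 ± 0.056, adjusted p = 6.4e-08) and from 573, 614 and 573 to 931, 870.4 and 871 CPM in the mixed cultures (log2 fold change 0.58 ± 0.054, adjusted p = 1.4e-08). The groups were separate in all 3. ASAH1, acid ceramidase, also rose in all 3, with log2 fold changes of 0.50, 0.54 and 0.53. LIPA, the acid lipase that frees cholesterol, rose by 0.36, 0.21 and 0.28 on the log2 scale, and its HCT116 call was lost without replicate 2 of either group (adjusted p = 0.0501 and 0.075). SMPD1, acid sphingomyelinase, rose in MCF10A (0.76) and passed in neither of the others. The 2 that fell in MCF10A were PPT1 and NPC2. PPT1, which removes fatty acids from proteins, went from 129.6, 139 and 129 to 79.9, 83.2 and 82 CPM (log2 fold change -0.72 ± 0.051, adjusted p = 1.2e-12), with -0.14 in HCT116 (adjusted p = 0.0824) and -0.06 in the mixed cultures (adjusted p = 0.451). NPC2, which hands cholesterol to NPC1, went from 82.9, 93.1 and 85.2 to 63.4, 67 and 65.1 CPM (log2 fold change -0.44 ± 0.058, adjusted p = 2.2e-07), with -0.04 in HCT116 (adjusted p = 0.678). Within MCF10A, NPC1 and NPC2 thus changed in opposite directions.

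Of the 2 transcription factors, TFE3 rose in MCF10A and TFEB passed in no culture. TFEB had 4.76, 4.79 and 5.94 CPM before irradiation and 6.87, 6.16 and 6.23 CPM after it in MCF10A (log2 fold change 0.30 ± 0.16, adjusted p = 0.121). HCT116 had 4.72, 5.47 and 5.86 CPM before irradiation and 6.31, 7.59 and 6.57 CPM after it (log2 fold change 0.36 ± 0.16, adjusted p = 0.0685), and the mixed cultures had 5.12, 5.59 and 4.75 CPM before irradiation and 7.2, 5.93 and 5.22 CPM after it (log2 fold change 0.22 ± 0.17, adjusted p = 0.297). In both monocultures the irradiated libraries lay above the non-irradiated ones although the test was not passed. TFE3 rose in MCF10A from 48.9, 44.8 and 45.7 to 64.3, 61.5 and 65.9 CPM (log2 fold change 0.44 ± 0.061, adjusted p = 5.5e-07) and overlapped in HCT116, at 23.1, 20.2 and 27.9 CPM before irradiation and 25.2, 21.3 and 24.7 CPM after it. Activity of these factors depends largely on where the protein sits in the cell, which RNA counts do not measure.

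All 5 proton pump members rose in MCF10A, 3 rose in HCT116 and 4 in the mixed cultures, and none fell in the main fits. ATP6V0D1, of the membrane sector, rose from 54.5, 57.1 and 49.9 to 88.1, 79.4 and 92 CPM in MCF10A (log2 fold change 0.66 ± 0.063, adjusted p = 6.3e-10), while HCT116 went from 35.4, 34.3 and 34.7 to 54.6, 51.5 and 50.7 CPM (log2 fold change 0.59 ± 0.075, adjusted p = 4.8e-07). ATP6V1A, the catalytic subunit that binds ATP, rose from 119, 109.9 and 121 to 145, 149 and 155 CPM in MCF10A (log2 fold change 0.34 ± 0.048, adjusted p = 7.3e-07). In HCT116 it rose from 127, 124 and 113 to 190.4, 182 and 181 CPM (log2 fold change 0.61 ± 0.060, adjusted p = 1.1e-08). Both genes were separate between treated and untreated libraries in each line. ATP6AP1, an accessory subunit, rose in all 3 cultures (0.35, 0.29 and 0.31 on the log2 scale). ATP6V1B2 rose in MCF10A (0.29) and had -0.14 in HCT116 (adjusted p = 0.056). It was called lower in HCT116 with library size alone (-0.15, adjusted p = 0.0437) and with all 6 groups in one fit (-0.13, adjusted p = 0.0459). In the mixed cultures it was called lower with mitochondrially encoded and the 10 most abundant genes left out of the scaling (-0.15, adjusted p = 0.0477). ATP6V1H, a regulatory subunit, rose in MCF10A (0.32) and in the mixed cultures (0.20), where the call was lost without non-irradiated replicate 1 or 3 or irradiated replicate 2 (adjusted p = 0.0753, 0.0526 and 0.0958). Of 10 further pump subunits tested from a wider list, 9 rose in each kind of culture. The remaining one, ATP6V0A2, fell in MCF10A (-0.24) and did not pass elsewhere.

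The 3 autophagosome proteins rose in every kind of culture. SQSTM1, the cargo receptor p62, went from 218, 213 and 193 to 423, 386 and 443 CPM in MCF10A (log2 fold change 0.98 ± 0.050, adjusted p = 9.4e-16). In HCT116 it went from 175, 184 and 194 to 220.4, 222 and 219 CPM (log2 fold change 0.27 ± 0.059, adjusted p = 5.1e-04), and in the mixed cultures from 202, 212 and 208 to 278, 259.6 and 259 CPM (log2 fold change 0.33 ± 0.055, adjusted p = 3.7e-05). MAP1LC3B encodes LC3B, the membrane tag that SQSTM1 binds. It rose from 93.8, 85.9 and 98.1 to 184, 177 and 192 CPM in MCF10A (log2 fold change 0.97 ± 0.051, adjusted p = 1.8e-15), while HCT116 went from 106, 114 and 101 to 152, 153 and 143 CPM (log2 fold change 0.49 ± 0.062, adjusted p = 5.3e-07). GABARAPL1, of the related GABARAP family, rose from 25.3, 22.8 and 23 to 44.2, 44 and 39.9 CPM in MCF10A (log2 fold change 0.83 ± 0.077, adjusted p = 3.9e-10). It rose from 40.3, 46.1 and 48.9 to 72.9, 67 and 66.4 CPM in the mixed cultures (log2 fold change 0.58 ± 0.078, adjusted p = 2.3e-06) and by 0.37 on the log2 scale in HCT116. No irradiated library of these genes overlapped with its non-irradiated group. MAP1LC3B has a near-identical copy, MAP1LC3B2, listed at 0.514, 0.875 and 0.706 CPM in irradiated MCF10A and 3.84, 3.4 and 3.73 CPM in irradiated HCT116, so reads may be split between them and both values are uncertain.

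**Figure D3:**
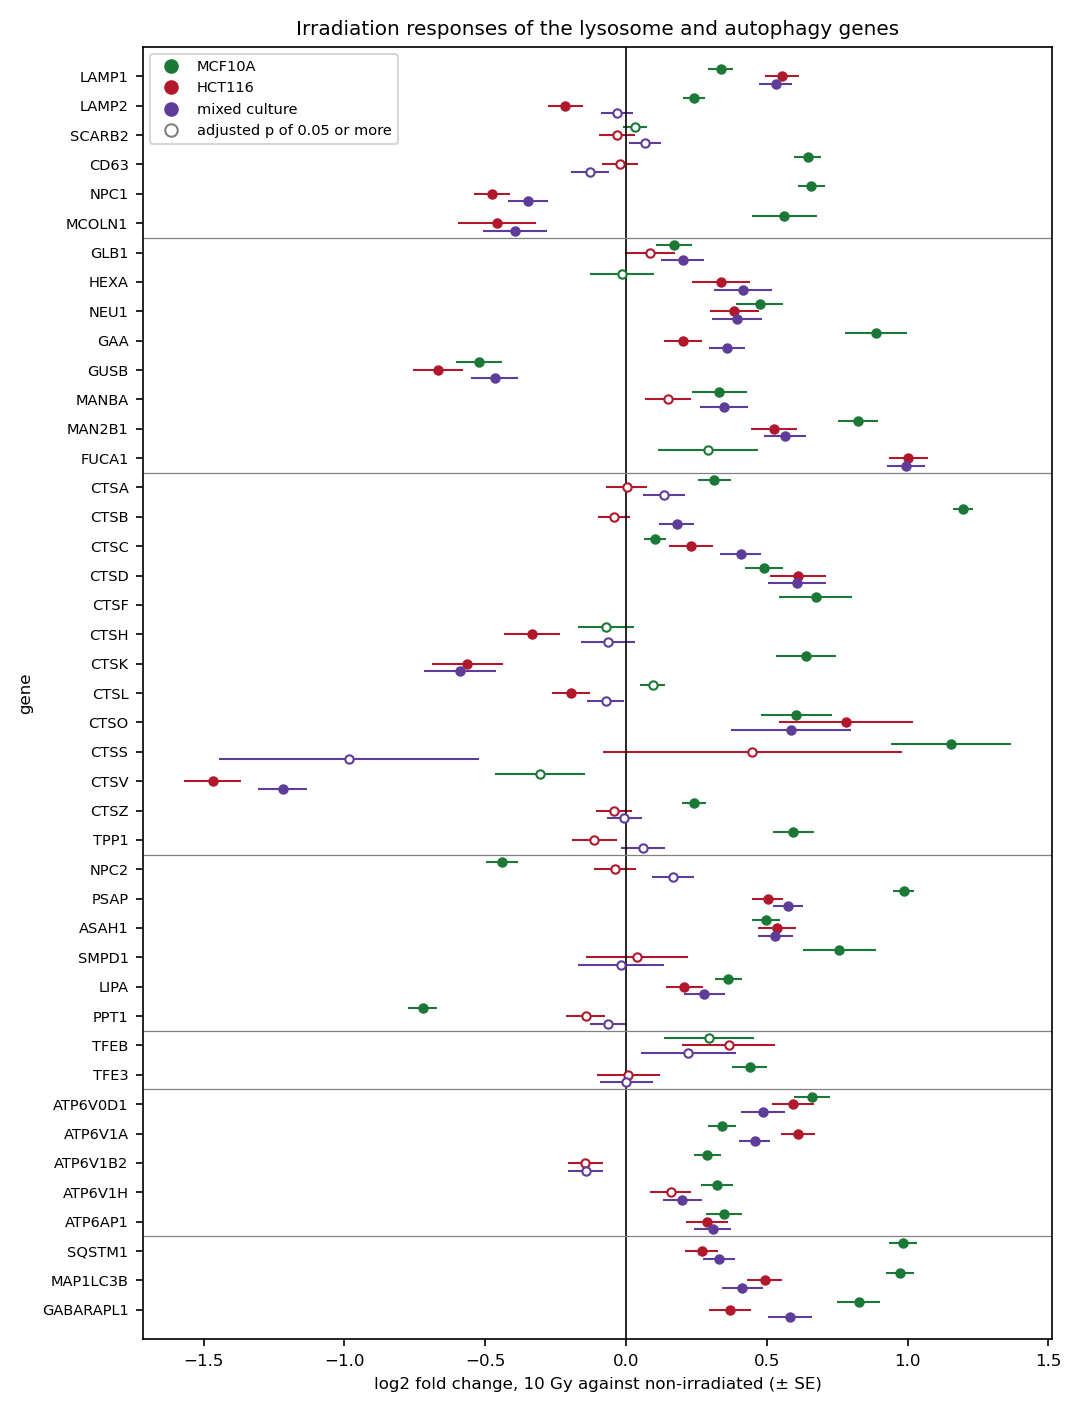
Points give the log2 fold change of irradiated against non-irradiated libraries for each member, with bars of 1 SE, in MCF10A (green), HCT116 (red) and mixed cultures (purple). Filled points passed an adjusted p of 0.05, and NPC1, MCOLN1 and CTSK lie on opposite sides of 0 in MCF10A and HCT116.

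Across the 3 irradiation responses 16 members rose in all kinds of culture, LAMP1, NEU1, GAA, MAN2B1, CTSC, CTSD, CTSO, PSAP, ASAH1, LIPA, ATP6V0D1, ATP6V1A, ATP6AP1, SQSTM1, MAP1LC3B and GABARAPL1. They came from all roles other than the transcription factors. At least 1 of the calls of CTSC, CTSO, GAA and LIPA was lost without a single library. The share of all genes that rose in all 3 was not counted. In the single responses 26.2%, 25.3% and 24% of all genes tested rose in MCF10A, HCT116 and mixed cultures. Most RNA of the mixed cultures came from HCT116, so these are not 3 independent responses. SCARB2 and TFEB passed in none of the 3.

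The wider list of 108 other lysosomal and autophagy genes was counted in the same fits. In MCF10A 56 of 103 tested rose and 15 fell, in HCT116 48 of 104 rose and 23 fell, and in the mixed cultures 46 of 104 rose and 19 fell. Of all genes tested, 26.2% rose and 29.2% fell in MCF10A, and 25.3% rose and 27.2% fell in HCT116. In the mixed cultures 24% rose and 25.4% fell. The counts of this paragraph are read against these shares. This wider list, too, was chosen with earlier results of these data known, so its counts describe it and do not test it. The wider list had median log2 fold changes of 0.21, 0.18 and 0.19, beside 0.36, 0.15 and 0.20 for the 43 members. Of 10 autophagy receptors, 8 rose and none fell in MCF10A, while 5 rose and 3 fell in HCT116 and in the mixed cultures. BNIP3, a receptor for mitochondria that is also induced by low oxygen, rose from 75 ± 3.4 to 106 ± 6.0 CPM in MCF10A and fell from 122 ± 16.2 to 51.9 ± 4.2 CPM in HCT116 and from 129 ± 18.7 to 48.9 ± 2.9 CPM in the mixed cultures (mean ± SD, n = 3). IDUA, the iduronidase that degrades heparan and dermatan sulfate, rose in all 3, with log2 fold changes of 1.41, 1.04 and 1.38. Of 7 genes for sorting to lysosomes, 5 rose in MCF10A, 3 in HCT116 and 2 in the mixed cultures, and 1 fell in each. The mixed count that rose (28.6%) is near the share over all genes. Lower values were found for LAMP3 (-0.96) and the LC3 protease ATG4C (-0.74) in MCF10A. FNIP2, a partner of folliculin in nutrient sensing, fell in HCT116 (-1.38) and the mixed cultures (-1.01). The largest fitted increases, of MAP1LC3A in HCT116 (2.67) and the mixed cultures (5.11), of MAP1LC3B2 in MCF10A (2.46) and of GABARAP in HCT116 (1.98), were at very low levels. MAP1LC3A had 0.145, 0.124 and 0.181 CPM before irradiation and 1.52, 0.735 and 0.622 CPM after it in HCT116, and GABARAP had 0.058, 0.218 and 0.181 CPM before irradiation and 0.427, 0.539 and 0.855 CPM after it there. The GABARAP call was lost without HCT116 non-irradiated replicate 1 or irradiated replicate 3 (adjusted p = 0.0927 and 0.0957).

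**Figure D4:**
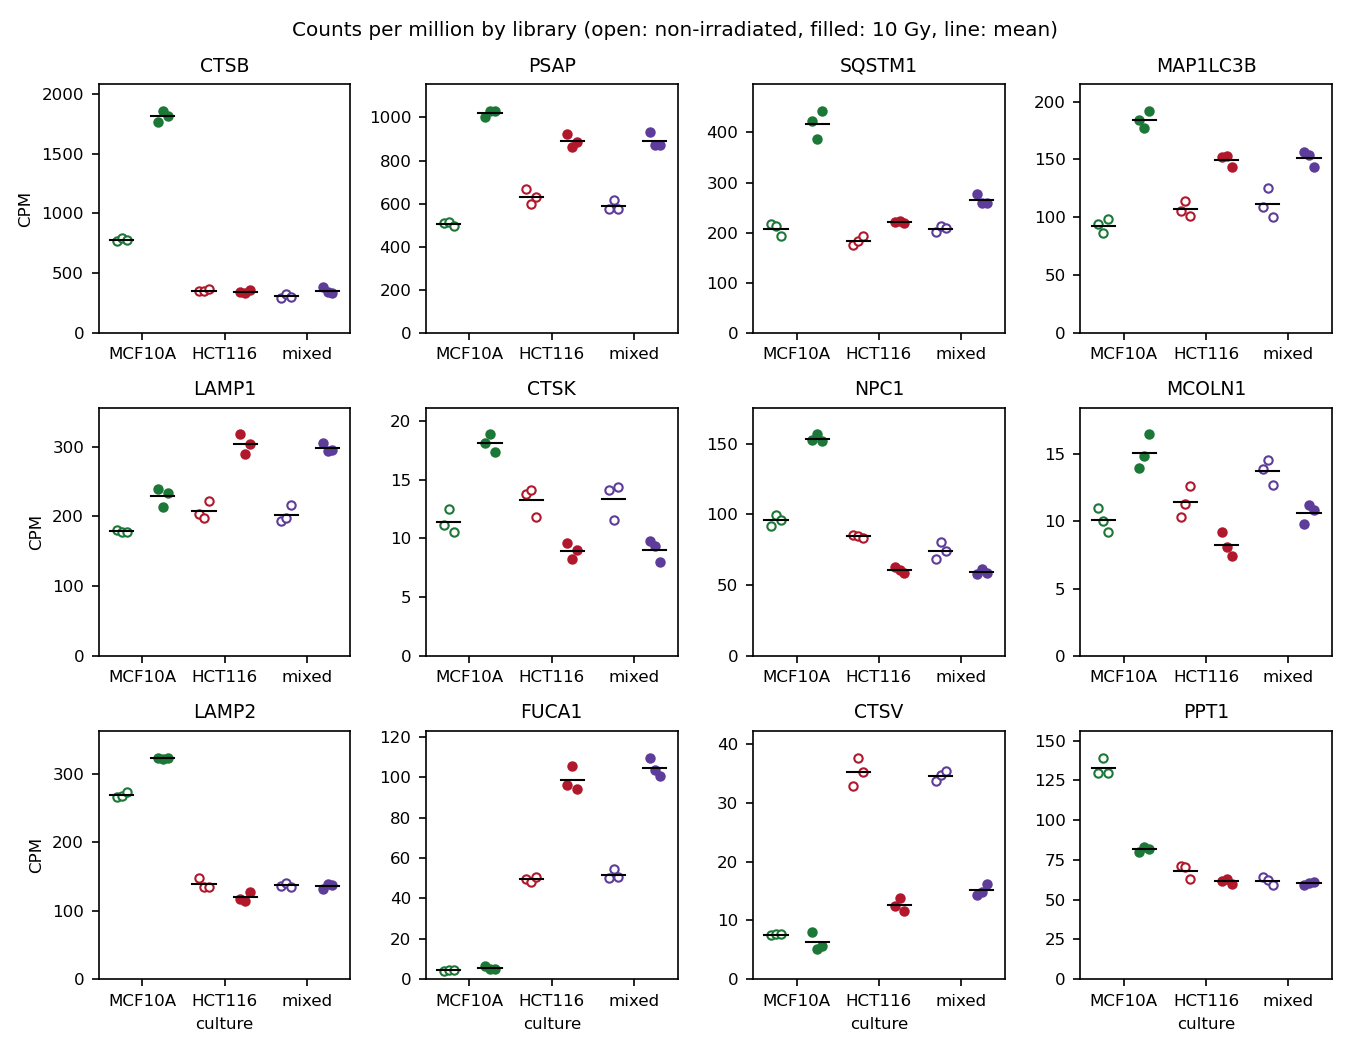
Points are CPM values of single libraries for 12 members, open without and filled with irradiation, by culture, and bars are group means. CTSB, NPC1 and LAMP2 are highest in irradiated MCF10A, FUCA1 and CTSV change in HCT116 and mixed cultures, and LAMP1 and PSAP rise in all 3.

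Before irradiation the lines were compared directly. Of 43 members 9 were higher in HCT116 than in MCF10A, 24 were lower and 10 did not pass, beside 38.7% and 36.1% of all 16568 genes tested. Fewer members were thus called higher (20.9%) and more were called lower (55.8%) than among all genes, a split that moved with the scaling, as given below. The members' median log2 fold change, HCT116 over MCF10A, was -0.27 and that of all genes was 0.05. It was the same with CTSF, which had no count in HCT116, set at its bound. GAA, with the values given above, had log2 fold change 3.56 ± 0.078, adjusted p = 3.2e-17, and FUCA1 had log2 fold change 3.30 ± 0.10, adjusted p = 3.9e-15. CTSV (log2 fold change 2.02 ± 0.10, adjusted p = 3.8e-12) and GABARAPL1 (log2 fold change 0.84 ± 0.084, adjusted p = 5.6e-08) were also higher in HCT116. MANBA had 18.8, 18.5 and 24.4 CPM in MCF10A and 54.6, 48 and 42.4 CPM in HCT116 (log2 fold change 1.04 ± 0.11, adjusted p = 1.1e-07). Of 13 peptidases 8 were lower in HCT116 and 3 higher. CTSC had 443, 449 and 433 CPM in MCF10A and 44.9, 39.9 and 38.3 CPM in HCT116 (log2 fold change -3.63 ± 0.063, adjusted p = 1.4e-18). CTSZ had 209, 213 and 199.9 CPM in MCF10A and 86.5, 81.6 and 84.8 CPM in HCT116 (log2 fold change -1.50 ± 0.055, adjusted p = 4.2e-14). CTSL had 157, 158 and 151 CPM in MCF10A and 67.2, 63 and 66.8 CPM in HCT116 (log2 fold change -1.44 ± 0.057, adjusted p = 1.0e-13), and CTSO had 8.62, 7.18 and 7.31 CPM in MCF10A and 2.89, 1.62 and 2.61 CPM in HCT116 (log2 fold change -1.90 ± 0.22, adjusted p = 3.8e-07). For each of these genes the libraries of the lines did not overlap.

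CTSF was detected in MCF10A alone of the monocultures. It had 7.12, 6.14 and 7.04 CPM in non-irradiated MCF10A and 0 counts in all 3 non-irradiated HCT116 libraries, and against a floor of 3 counts over that group it was at least 212-fold higher in MCF10A (at least 106-fold if the counts are halved, as would apply if both mates of a read pair were counted). The mixed cultures had 0.072, 0 and 0.222 CPM without and 0.453, 0.481 and 0.221 CPM with irradiation, at a share of MCF10A RNA of 0.447% and 1.24%. Scaling mattered for small differences between the lines. With upper-quartile factors or library size alone, 15 members were higher and 21 lower in HCT116, so the share of higher among called members went from 27.27% to 41.67%. The median of all genes moved to 0.25 in both. Relative to that median, the members' median was -0.32 under each of these scalings and in the fit given above. ATP6V1A and ATP6V1B2, called lower in HCT116 at -0.14 and -0.13, had 0.07 and 0.07 with upper-quartile factors and 0.06 and 0.07 with library size alone. The calls of PSAP, ATP6AP1 and CTSA, all higher by at most 0.20, and of these 2 pump subunits were each lost without at least 1 of the 6 libraries.

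**Figure D5:**
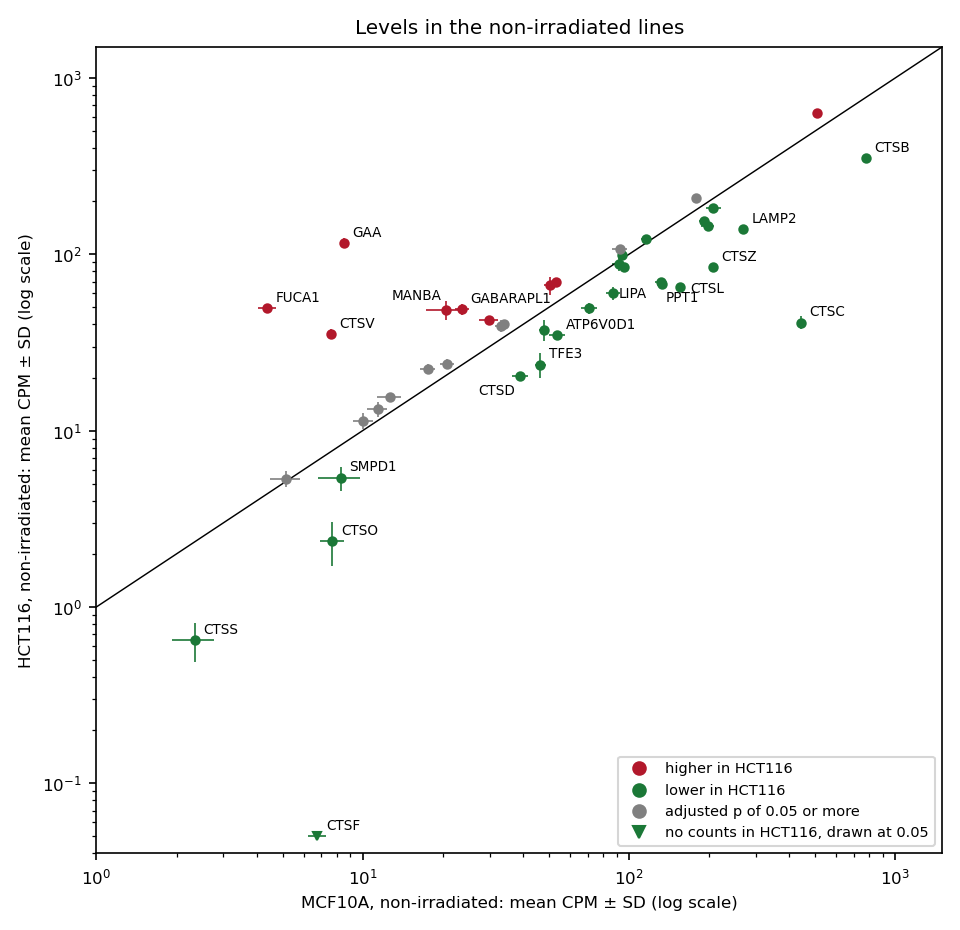
Each point is 1 member, with its mean CPM ± SD in non-irradiated MCF10A on the horizontal and in non-irradiated HCT116 on the vertical log axis, and the line marks equal CPM. GAA, FUCA1 and CTSV lie above the line, and CTSC, CTSO, CTSZ and CTSL below it, with CTSF at 0 in HCT116.

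The difference between the lines' irradiation responses was tested directly as an interaction over the 4 monoculture groups. The libraries are the same as in the responses above, so the test adds no independent evidence on either response. The 4 groups were scaled together here, so a value need not equal the difference of the separately fitted responses. Of 43 members 3 responded higher in HCT116 than in MCF10A, 22 lower and 18 did not pass, beside 15.4% and 21.9% of all 18179 genes tested. The median was -0.36 over the members and -0.10 over all genes, and with mitochondrially encoded and the 10 most abundant genes left out of the scaling it was -0.26 and 0.00, a difference of -0.26 in both. The most negative differences were CTSB at log2 fold change -1.32 ± 0.064, adjusted p = 5.3e-14, CTSK at log2 fold change -1.28 ± 0.16, adjusted p = 7.6e-07 and CTSV at log2 fold change -1.24 ± 0.19, adjusted p = 7.6e-06. For CTSB the MCF10A increase had no counterpart past the test in HCT116, for CTSK the lines moved in opposite directions, and for CTSV the decrease passed in HCT116 alone. NPC1 (log2 fold change -1.21 ± 0.076, adjusted p = 5.3e-12) and MCOLN1 (log2 fold change -1.10 ± 0.18, adjusted p = 3.2e-05) followed. All 3 autophagosome proteins rose less in HCT116, with -0.79 for SQSTM1, -0.56 for MAP1LC3B and -0.53 for GABARAPL1. PSAP also rose less there (-0.56). Higher responses in HCT116 were found for FUCA1 (log2 fold change 0.64 ± 0.14, adjusted p = 8.2e-04), PPT1 (log2 fold change 0.50 ± 0.083, adjusted p = 2.6e-05) and NPC2 (log2 fold change 0.32 ± 0.097, adjusted p = 0.0102). Only the FUCA1 difference came with a call in HCT116, since PPT1 and NPC2 fell in MCF10A. LAMP1, CTSD, ASAH1, ATP6V0D1 and ATP6AP1, which rose in both lines, did not pass as different (0.14, 0.04, -0.04, -0.14 and -0.14), which does not show that they were equal. CTSF is counted among the 18, but its response in HCT116 has no count behind it.

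Mixed cultures were set against HCT116 cultures of the same treatment. Without irradiation none of the 42 members tested was higher and 1 was lower, beside 0.887% of all 16455 genes called higher and 1.15% called lower. That member was NPC2, at 42, 44.9 and 41.9 CPM in mixed and 54, 64 and 62.8 CPM in HCT116 cultures (log2 fold change -0.47 ± 0.082, adjusted p = 0.00286). After irradiation 4 were higher and 1 lower, beside 5.08% of all 17137 genes called higher and 3.48% called lower. CTSC had 55, 62.9 and 59.95 CPM in mixed and 48.3, 49.4 and 45.9 CPM in HCT116 cultures (log2 fold change 0.30 ± 0.068, adjusted p = 0.00458), beside 481, 488 and 476 CPM in MCF10A. SQSTM1 (log2 fold change 0.26 ± 0.050, adjusted p = 9.1e-04) and LAMP2 (0.19) were higher as well. SCARB2 had 181, 167 and 179 CPM in mixed and 143, 148 and 163 CPM in HCT116 cultures (log2 fold change 0.21 ± 0.056, adjusted p = 0.0157). NPC2 was again lower, at 48.6, 52.8 and 45.9 CPM in mixed cultures and 58.7, 59.4 and 56.6 CPM in HCT116 (log2 fold change -0.26 ± 0.068, adjusted p = 0.0151). Of these 5 calls only that of SQSTM1 held without each single library. CTSC was lost without mixed replicate 2 (adjusted p = 0.0617), NPC2 without HCT116 replicate 2 or mixed replicate 3 (0.0642 and 0.144), LAMP2 without HCT116 replicate 1 or 2 or mixed replicate 2 or 3, and SCARB2 without HCT116 replicate 1 or 2 or mixed replicate 1 or 3. The other 37 of 42 members did not pass after irradiation. These comparisons share their libraries with the irradiation responses.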

How the data were processed

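Poly(A)-selected RNA from 18 cultures was sequenced in read pairs, per the labels. The deposited values are raw counts per gene, which the authors made with fastp, STAR and featureCounts on GRCh38, per the submitters' processing notes. Tool versions, annotation, strand setting and whether mates were counted singly are not given in the sources used here. Of all counts from 1 to 10, 68.3% were even, so halved counts were tried as an alternative.

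Groups came from the sample titles. Each comparison was fitted on all genes with edgeR 4.0.16 in R 4.3.3 (TMM scaling, filterByExpr, quasi-likelihood test, 2-sided) with Benjamini-Hochberg adjustment over all genes tested, and calls were made at an adjusted p under 0.05. CPM is a gene's count divided by its library's total and multiplied by 1000000. SE is the absolute log2 fold change divided by the square root of F. Fits were tested on simulated data. No libraries were left out. A check of a label is not reported here. The numbers in the titles were not used to pair the libraries in the main fits. In none of 15 pairs of groups did all same-numbered libraries correlate above 0.1. The highest single correlation was 0.189, for replicate 3 of the non-irradiated HCT116 and mixed cultures. Such a cut cannot exclude pairing, so a replicate block was run as an alternative.

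The 43 members and the wider lists were chosen with earlier results of these data known. Values of every library are given for up to 5 called members in each direction with at least 5 CPM and no overlap, for the 3 largest differences in each direction between responses and between mixed and HCT116 cultures, and for LAMP1, GLB1, FUCA1, CTSD, TFEB, MCOLN1 and SQSTM1 in each irradiation response. SMPD1, BNIP3 and other genes given by means or fold changes are there to account for their lists. Alternatives were other scalings, DESeq2 1.42.0, no filter, all 6 groups in one fit, a replicate block, halved counts and each library left out. Line-specific genes for the mixture estimate had at least 20.0 CPM in one line and at most 1 CPM in the other.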

Additional observations from a re-analysis of the deposited data

Results flagged for a closer look

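For 25 members the irradiation response differed between the lines, by edgeR's quasi-likelihood test of the interaction with Benjamini-Hochberg adjustment over all genes. Each value is the log2 fold change in HCT116 minus that in MCF10A. It was positive for FUCA1 (0.64), PPT1 (0.50) and NPC2 (0.32). Among the membrane proteins it was -0.53 for LAMP2, -0.74 for CD63, -1.10 for MCOLN1 and -1.21 for NPC1. The glycosidases GAA and MAN2B1 had -0.76 and -0.38. Among the peptidases it was -0.36 for CTSZ, -0.37 for CTSL, -0.39 for CTSA, -0.78 for TPP1, -1.24 for CTSV, -1.28 for CTSK and -1.32 for CTSB. The lipid proteins LIPA, PSAP and SMPD1 had -0.23, -0.56 and -0.80. TFE3 had -0.51, and the pump subunits ATP6V1H and ATP6V1B2 had -0.24 and -0.51. The autophagosome proteins GABARAPL1, MAP1LC3B and SQSTM1 had -0.53, -0.56 and -0.79. The calls of ATP6V1H, LIPA, MAN2B1, CTSA and TFE3 were each lost without at least 1 of the 12 libraries. Those of ATP6V1H, LIPA and MAN2B1 were also lost under at least 1 alternative that kept all libraries, such as leaving mitochondrial and abundant genes out of the scaling.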

How the results depend on the processing

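Of 3282 values of single genes under the alternatives, 3089 kept direction and side of the threshold, 120 lost a call, 26 gained one and 47 changed sign. The causes were not tested. Of the members called, 34 of 36 in MCF10A, 21 of 26 in HCT116 and 23 of 27 in the mixed cultures stayed called without each single library, as did 28 of 33 between the lines and 20 of 25 between the responses. Genes at low counts limit what these depths can resolve. Among the calls gained in MCF10A with all libraries kept were those of TFEB (0.38, adjusted p = 0.0454) and SCARB2 (0.12, adjusted p = 0.0258) with upper-quartile factors. With all 6 groups in one fit FUCA1 (0.28, adjusted p = 0.0432) and CTSV (-0.31, adjusted p = 0.047) were gained there.

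The values that changed sign are as follows. In MCF10A HEXA went from -0.01 to 0.00047 with RLE factors, 0.0698 with upper-quartile factors, 0.0075 with library size alone, 0.00057 with DESeq2 and 0.00084 with halved counts, and CTSH to 0.0121 with upper-quartile factors. In HCT116 CTSA went to -0.0041 with library size alone and -0.0042 without the filter, and TFE3 to -2.7e-05 without the filter. In the mixed cultures, with upper-quartile factors, library size alone and all 6 groups in one fit, CTSZ went to 0.0303, 0.0212 and 0.0346 and SMPD1 to 0.0184, 0.0093 and 0.0216. LAMP2 went to 0.0043 with upper-quartile factors and 0.0086 with all 6 groups, and TFE3 to -0.0079 without mitochondrial and abundant genes and -0.0184 without the filter. Between the lines ATP6V1A went to 0.0657 and 0.0623, and ATP6V1B2 to 0.0739 and 0.0702, with upper-quartile factors and library size alone, where 15 members in place of 9 were higher. Members with a higher response in HCT116 went from 3 to 5 without mitochondrial and abundant genes or without the filter, and to 6 with all 6 groups, and the share of higher among all called genes from 41.31% to 52.57% under the first of these.

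Without single libraries, HEXA in MCF10A ranged from -0.0873 to 0.0591. In HCT116 CTSA ranged from -0.0729 to 0.0469, TFE3 from -0.10 to 0.14, CD63 from -0.0517 to 0.0325, NPC2 from -0.12 to 0.00062, SMPD1 from -0.0912 to 0.13, SCARB2 from -0.0821 to 0.0061 and CTSS from -0.36 to 0.82. In the mixed cultures TFE3 ranged from -0.11 to 0.0618, SMPD1 from -0.10 to 0.0273, CTSZ from -0.0348 to 0.0072 and TPP1 from -0.0117 to 0.0927. Members with a higher response in HCT116 numbered 3 to 5.

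Mixed against HCT116 cultures varied most. Without irradiation, genes higher numbered 146 and lower 189. They numbered 278 and 297 with DESeq2, 308 and 363 without the filter, and 490 higher with all 6 groups. Members lower went from 1 to 2 with DESeq2 or all 6 groups, and members higher from 0 to 1 with all 6 groups. Without single libraries 68 to 144 genes were higher and 77 to 181 lower. After irradiation, all 6 groups in one fit gave 261 genes lower in place of 596 and 0 members lower in place of 1. Without single libraries 567 to 800.0 genes were higher and 299 to 537 lower, with 2 to 5 members higher and 0 to 1 lower.

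The titles' replicate numbers as a block left 33 members higher and 3 lower in MCF10A, 18 and 8 in HCT116, and 22 and 5 in the mixed cultures. Between the lines it gave 7 higher and 22 lower in place of 9 and 24, with PSAP, ATP6AP1, ATP6V1A and ATP6V1B2 no longer called (adjusted p = 0.0671, 0.069, 0.0653 and 0.0684). Between the responses it gave 3 and 21, with ATP6V1H no longer called (0.0563). Between mixed and HCT116 cultures the replicate block gave 3 members lower, 319 genes higher and 397 lower without irradiation, and 957 genes lower after it.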
